A study of Mus musculus with 4 samples.

Results

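The probes described here are designed DNA oligos that carry a pair of adjacent pyrimidines at one edge of a window of 4 varied bases, on the strand listed in the design. They come from 21 libraries in which every combination of the 4 bases was printed. An ending was kept where its bases are pyrimidine, pyrimidine, purine, pyrimidine (dipyrimidine at the left edge) or pyrimidine, purine, pyrimidine, pyrimidine (dipyrimidine at the right edge). This gave 32 endings per library and 672 probe names, 336 left and 336 right, out of 5376 names in the 21 libraries and 6126 names in the whole series. The 672 names hold 624 distinct sequences, because 48 sequences were printed under 2 names. Each of those 48 counts as left in one library and as right in another.

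The series measured the binding of antibodies against UV photoproducts to such probes. There were 4 arrays, 1 per group. Mouse anti-CPD antibody at a dilution of 1 in 400 was used on 1 UV-irradiated and 1 non-irradiated array, and mouse anti-6-4PP antibody at 1 in 80 on 1 UV-irradiated and 1 non-irradiated array. The mouse is the source of the antibodies, and the measured items are synthetic DNA. Groups follow the condition field of the labels. For anti-6-4PP each title contradicts that field, so the words UV and non-UV for this antibody rest on the field alone.

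UV light joins neighbouring pyrimidines of a DNA strand, and the cyclobutane pyrimidine dimer (CPD) and the 6-4 photoproduct (6-4PP) are the main products. CPDs are known to form most readily at TT, while 6-4PPs are known for TC and TT steps and for being rare at CT. Both products distort the helix and block polymerases, and cells remove them by nucleotide excision repair. A dipyrimidine in a designed probe has a type (TT, TC, CT or CC), a base before it, a base after it and a strand. The 21 libraries vary all of these, while the members described here keep to the listed strand.

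The bases on either side of the window are fixed per library, and they decide what an edge dipyrimidine is part of. All probe backbones alternate purines and pyrimidines, so the probes of one class have the same number of dipyrimidine steps, and no member has a dipyrimidine on the opposite strand. Steps in the 10 bases shared at the 3′ end of all probes were not counted. The 8 sequences below, shown because they place the same endings in the 4 kinds of library, are written 5′ to 3′ with every base of a dipyrimidine in capitals. The last 4 letters of a name are the varied bases. TCAC is a TC at the left edge and CATC a TC at the right edge.
MITF_ebox_59_TCAC: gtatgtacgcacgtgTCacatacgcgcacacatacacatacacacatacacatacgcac
MITF_ebox_59_CATC: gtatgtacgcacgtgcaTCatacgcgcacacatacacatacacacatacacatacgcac
MITF_ebox_60_TCAC: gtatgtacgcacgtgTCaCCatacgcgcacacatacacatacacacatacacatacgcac
MITF_ebox_60_CATC: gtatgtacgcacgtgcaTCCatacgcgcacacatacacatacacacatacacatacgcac
MITF_Ex_ebox_60_TCAC: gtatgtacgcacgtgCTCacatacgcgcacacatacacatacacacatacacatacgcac
MITF_Ex_ebox_60_CATC: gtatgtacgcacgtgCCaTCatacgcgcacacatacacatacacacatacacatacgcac
MITF_Ex_ebox_59_TCAC: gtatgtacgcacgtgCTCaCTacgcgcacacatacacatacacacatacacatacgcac
MITF_Ex_ebox_59_CATC: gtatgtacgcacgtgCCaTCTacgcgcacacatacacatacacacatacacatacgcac

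In 4 libraries (128 members, 59 bases) purines stand on both sides of the window, so the edge dipyrimidine is isolated and is the 1 step of its probe. In 7 libraries (224 members, 60 bases) a C follows the window: a left dipyrimidine is then accompanied by a separate one, made of the lone pyrimidine and that C, and a right dipyrimidine is extended to a run of 3 pyrimidines. In 6 libraries (192 members, 60 bases) a C or T precedes the window and the picture is mirrored, with a run of 3 on the left and 2 separate dipyrimidines on the right. In the remaining 4 libraries (128 members, 59 bases) pyrimidines stand on both sides, so every member has a run of 3 and a separate dipyrimidine. The left or right label thus fixes a different set of steps in each class, and values are given by class below.

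Intensities are medians over the unflagged replicate spots of a name, in the scanner's linear units, which end at 65535. Each name had 10 spots on an array. Replicate spots of a member had a median SD, in log2 units, of 0.59 (UV) and 0.22 (non-UV) with anti-CPD, and of 0.26 (UV) and 0.15 (non-UV) with anti-6-4PP. The CPD UV array was uneven, with a local median between 1111 and 8004 across its surface. On the 6-4PP UV array 12 members had a median at 65535, which is a lower bound. Of the members' 6720 spots, 29 (UV) and 142 (non-UV) were flagged with anti-6-4PP, and 0 with anti-CPD. With 1 array per group, no difference between UV and non-UV has a replicate check, and none is given a p-value.

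The members bound both antibodies on the UV arrays and almost not at all on the non-UV arrays. With anti-CPD their median was 4043 on the UV array (lowest 914, highest 16132) and 31 on the non-UV array (lowest 25.5, highest 67.5). With anti-6-4PP it was 13781 on the UV array (lowest 4149, highest the ceiling) and 59 on the non-UV array (lowest 33, highest 90.5). For either antibody the UV and non-UV ranges of the members were far apart. The median log2 difference between UV and non-UV was 7.10 for left and 6.99 for right members with anti-CPD, and 7.96 for left and 8.01 for right members with anti-6-4PP. Over all 5376 names it was 7.11 and 8.17 for the 2 antibodies.

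Part of that signal was also present on probes with no dipyrimidine at all. The 208 names without a dipyrimidine on either strand had a median of 2342 (UV) and 28 (non-UV) with anti-CPD, and of 4832 (UV) and 53 (non-UV) with anti-6-4PP. They come from 13 libraries, none of them with purines on both sides of the window. Members were therefore set against 2 times this level. On the CPD UV array 286 of 672 members lay above it, beside 41.9% of all 5376 names, and on the 6-4PP UV array 480 members did, beside 72.9% of all names. The members' shares were thus close to those of all names. Without UV, 9 members passed with anti-CPD (0.93% of all names did) and 0 with anti-6-4PP (0.0558% of all names). Of those 9, 8 belong to TBP libraries with pyrimidines on both sides and 1 to a p53 library, and each contains at least 1 TT step. The highest was TBP_E59_TTAT, at 16132 with UV and 67.5 without.

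An isolated dipyrimidine gave a different order of types with each antibody. With anti-CPD, TT was brightest, with a median of 7573 over 32 names in the 4 purine-flanked libraries. TC had 3565, CT 2921 and CC 2218, the last about the level of probes without a dipyrimidine. With anti-6-4PP, TC was brightest at 15689, followed by TT at 10886, CC at 7659 and CT at 6342. CT, the second weakest type for anti-CPD, was thus the weakest for anti-6-4PP. There 0 of 32 isolated CT names reached 2 times the dipyrimidine-free level, against 23 of 32 for TC, 16 of 32 for TT and 5 of 32 for CC. Of all 5376 names 72.9% reached it. That level was taken from other libraries than these 4.

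To compare types within a library, each TT, TC and CT member was paired with the CC member of the same library, edge, purine and lone pyrimidine. Where a pyrimidine flank touches the dipyrimidine, the pair also differs in the step made with that flank, for example CTC against CCC. Such pairs do not isolate the type. The replicate spots of the 2 probes were compared by an exact two-sided permutation test on log2 intensity, with Benjamini-Hochberg adjustment over all 2016 such pairs of the 21 libraries on that array. This test compares spots of 1 array. With anti-CPD 295 of 504 member pairs passed at an adjusted p under 0.05, all with the other type above CC, beside 58.9% of all pairs, likewise all higher. With anti-6-4PP 319 member pairs passed with the other type higher and 73 with it lower, beside 65.8% of all pairs higher, 11.9% lower and 77.6% in either direction. The members' shares were thus near the background.

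TT exceeded CC with anti-CPD in 84 of 84 left pairs (median log2 difference 1.68) and 84 of 84 right pairs (1.60), and 84 and 83 of these passed the test. Over all endings 97.9% of left TT pairs and 99.7% of right TT pairs passed, so TT above CC was no mark of the members. With anti-6-4PP TT exceeded CC in 72 of 84 left pairs (median 0.47, 60 passed higher and 2 lower, beside 75.3% of all left TT pairs) and in 84 of 84 right pairs (0.83, 78 passed, beside 89% of all right TT pairs).

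TC and CT had different values at the 2 edges. The left TC exceeded CC in 83 of 84 pairs with anti-6-4PP (median 1.24, 76 passed, beside 77.1% of all left TC pairs) and in 79 of 84 with anti-CPD (0.72, 40 passed, beside 31.2%). The right TC exceeded CC in 66 of 84 pairs with anti-6-4PP (0.58, 59 passed higher and 11 lower, beside 82.1%) and in 70 of 84 with anti-CPD (0.42, 24 passed, beside 45.5%). TC was thus above CC in most pairs at both edges, with 11 right pairs that passed the other way.

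The left CT was above CC in 65 of 84 pairs with anti-CPD (median 0.29, 15 passed, beside 35.7% of all left CT pairs) and below CC in 82 of 84 pairs with anti-6-4PP (-0.46, 49 passed). Over all left CT pairs with anti-6-4PP 67% passed, 126 of 336 higher and 99 lower, with a median of -0.03. The right CT was above CC in 78 of 84 pairs with anti-CPD (0.91, 49 passed, beside 43.2%) and in 52 of 84 with anti-6-4PP (1.33, 46 passed higher and 11 lower, beside 75.3%). With anti-6-4PP the median of CT against CC over the pooled classes was thus below 0 at the left edge and above 0 at the right. The right members were split by class in their median log2 difference between UV and non-UV. Between purine flanks it was 6.64 for CT and 6.97 for CC. With a pyrimidine before the window alone it was 7.26 and 7.50. With C after the window it was 9.55 and 7.94, and with pyrimidines on both sides 8.89 and 7.35. The median of left CT pairs was below 0 in all 21 libraries with anti-6-4PP and above 0 in 19 of 21 with anti-CPD.

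Isolated TC probes with A before the dipyrimidine were brighter with anti-6-4PP than those with G before it, at both edges. At the left edge that base is the fixed flank, A in the TBP and G in the MITF libraries, so there the base and the backbone cannot be told apart. At the right edge it is the varied purine and both bases occur in every library, while the base after is the fixed flank. The context is written as the base before, the dipyrimidine and the base after, and each context is represented by 4 names per edge. ATCA had a median of 34117 at the left edge and 30896 at the right. ATCG had 22500 at the left edge (lowest 21416, highest 24644) and 22946 at the right. GTCA had 10172 and 10732, and GTCG had 8332 and 9131, left before right. The 4 contexts thus kept their order at both edges, and the ranges with A before TC (20028 to 36403) and with G before TC (7649 to 11350) did not overlap. For TT the medians, left before right, were 19314 and 16986 for ATTA, 12877 and 14093 for ATTG, 8135 and 7774 for GTTA, and 6459 and 7792 for GTTG. A before TT was thus above G before TT at both edges, while GTTA and GTTG lay together at the right. Isolated CT stayed between 4149 and 8497 in every context.

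The sequences behind this contrast differ by as little as 1 base. They are shown because 2 of them have TC at opposite edges with the same neighbours, and the others change the base before TC. They were chosen after their values were seen.
TBP_59_TCGC: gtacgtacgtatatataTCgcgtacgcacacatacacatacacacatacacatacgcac
TBP_59_CATC: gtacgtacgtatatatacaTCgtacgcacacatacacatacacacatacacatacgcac
TBP_59_CGTC: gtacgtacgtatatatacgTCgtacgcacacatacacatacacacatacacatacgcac
MITF_ebox_59_CGTC: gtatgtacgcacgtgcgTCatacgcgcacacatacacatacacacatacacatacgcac
On the 6-4PP UV array TBP_59_TCGC (a left TC) had 21932 and TBP_59_CATC (a right TC) 26548, both with A before and G after. TBP_59_CGTC, with G before TC, had 8700. In the MITF backbone MITF_ebox_59_CATC had 36403 and MITF_ebox_59_CGTC 10922, while the left probe MITF_ebox_59_TCAC, which also has G before and A after TC, had 9367. On the 6-4PP non-UV array these 6 probes lay between 52 and 64. With anti-CPD on the UV array they lay between 2078 and 4725, and the adjusted p of CATC against CGTC was 0.0739 in TBP_59 and 0.617 in MITF_ebox_59 (exact permutation test).

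Pairs that differ only in A or G at the purine of the ending were pooled over all classes. A was above G with anti-6-4PP in 320 of 336 member pairs, with a median log2 difference of 0.60, and 241 passed with A higher and 1 with A lower, beside 38.3% of all 2688 pairs with A higher and 52.2% in either direction. In all 21 libraries the median was above 0. The purine stands before a right dipyrimidine and after a left one. Where the lone pyrimidine joins a flank, it also stands next to that second dipyrimidine, so the pooled values do not isolate the base before. For isolated dipyrimidines the median difference was 0.67 at the right edge (32 of 32 pairs higher) and 0.32 at the left edge (29 of 32 pairs higher). Of these pairs 24 right and 14 left passed, beside 48.1% of all right and 56.3% of all left pairs. By type, the isolated right TC had the highest value, 1.44 (8 of 8 pairs higher, all passed), followed by TT at 1.05, CC at 0.64 and CT at 0.40. With anti-CPD the median over all member pairs was 0.26, and 40 passed, all with A higher, which is 11.9% of the member pairs beside 18.9% of all pairs (18.8% with A higher). The right TT pairs made up 19 of these 40. Over all endings 20.2% of left and 17.6% of right pairs passed with anti-CPD.

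When left and right members had the same base before and after the dipyrimidine, the median edge difference was near 0 with anti-6-4PP. This could be arranged in the 4 purine-flanked libraries, for 32 pairs, a matching added after the values had been seen. The median log2 difference of left minus right was -0.02 with anti-6-4PP, from -0.51 to 0.30, and 1 pair passed the test with left higher and 3 with left lower. With the spatially adjusted intensity 0 passed higher and 3 lower, and 1 of the first 4 calls was kept. Over all 1344 pairs matched this way, whose other steps can differ, 73.1% passed. With anti-CPD the median was -0.25, left was lower in 24 of 32 pairs, and 2 pairs passed, beside 22.5% of all pairs. Both of these were CT pairs, named here after their values were seen. They were CTAT against TGCT in MITF_ebox_59 (log2 difference -1.24) and CTGC against CACT in TBP_59 (-0.71). With the spatially adjusted intensity 0 of the 2 passed, while 2 other pairs did, both with left lower, beside 52.75% of all pairs. A pair that missed the threshold is not shown to be equal.

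Without that matching, the same 4 libraries gave opposite edge differences in the 2 backbones. For each left member the plain partner is the right member with the same type, purine and lone pyrimidine. In the MITF backbone the left flank is G and the right flank A, and left minus right was -0.48 on the log2 scale with anti-6-4PP, with left lower in 28 of 32 pairs and 17 passing. In the TBP backbone the left flank is A and the right flank G, and left minus right was 0.47, with left higher in 31 of 32 pairs and 23 passing. Over all 5292 pairs rearranged this way, 38.1% passed with the first ending higher and 39.1% with it lower. The isolated TC had the widest split, with -0.93 in MITF (8 of 8 pairs lower) and 1.00 in TBP (8 of 8 pairs higher). With anti-CPD the backbone medians were -0.38 in MITF, where left was lower in 27 of 32 pairs, and 0.14 in TBP, where it was higher in 20 of 32. Over all 336 left and right pairs of the 4 classes the opposing differences left medians near 0, at 0.06 with anti-CPD and 0.08 with anti-6-4PP. Of these pairs 24.1% passed with anti-CPD, beside 27% of all pairs, and 72.0% with anti-6-4PP, beside 77.2% of all pairs.

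The TC probes printed first, TCAC (left) and CATC (right), show how the edges differed in the 4 classes. On the UV array with anti-6-4PP, the purine-flanked MITF_ebox_59 had 9367 ± 3002 for TCAC and 36403 ± 4481 for CATC (SD over 10 spots each), a log2 difference of -1.96 with an adjusted p of 2.72e-05 (exact permutation test). With C after the window, MITF_ebox_60 had 14626 for TCAC and 16280.0 for CATC. With C before it, MITF_Ex_ebox_60 had 43127 and 41067 (adjusted p 0.264, exact permutation test). With pyrimidines on both sides, MITF_Ex_ebox_59 had 46845 for TCAC and 18584 for CATC, a log2 difference of 1.33. The right TC was thus brighter in the first library, the left TC in the last, and the edges lay close together in the other two. Without UV the 8 probes had 6-4PP intensities between 55.5 and 73. With anti-CPD and UV they had between 1989 and 5467, and 0 of the 4 pairs passed.

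Where a pyrimidine flank made a run of 3, the order of types was not that of isolated dipyrimidines. The libraries differ in more than their flanks, so the difference between classes was not tested. With anti-6-4PP the right CT followed by C, the run CTC, had a median of 39788 over 28 names (lowest 27172, highest 53858), against 6393 for the isolated right CT. Every CTC name of these 7 libraries was brighter than every isolated CT name, and CTC also holds a TC step. The right TC followed by C, the run TCC, had 13069.8 (lowest 8336, highest 21538), and the right TT followed by C, the run TTC, had 25658. CCC had 13183. The lowest-ranked type of isolated dipyrimidines was thus the highest in this class, and CT exceeded CC by a median of 1.59 in 28 of 28 pairs, all of which passed, while TC differed from CC by -0.05.

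The mirrored libraries gave the same runs at the left edge under another label. Here a left TC preceded by C is the run CTC, and it had 39606 over 16 names (lowest 23605, highest 57746), close to the 39788 of the right CTC. A left TT preceded by C, the run CTT, had 20596 and a left CT preceded by C, the run CCT, had 8124. Where T preceded the window, in both p53_E libraries, a left TC formed TTC with a median of 17715 over 8 names, and a left CC formed TCC with 8618. CTC thus had the highest median of the 8 left runs and CCT and TCT, at 7620, the lowest 2. With anti-CPD runs with a TT step were brightest: TTT had 10019, CTT 7329.5 and TTC 5749.5. CTC, which holds no TT step, had 4555, while TCC had 2661 and CCC 2097.

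With pyrimidines on both sides the 2 edges swapped their bright type within one library. At the left edge CTC had a median of 47787 on the 6-4PP UV array, with 6 of 16 names at the ceiling, and CCT had 11949. At the right edge CTT, labelled CT, had 35239.8 with 2 of 16 names at the ceiling, and TCT, labelled TC, had 13312. Left minus right was 1.82 for pairs labelled TC, higher in 16 of 16 and all passing, and -1.59 for pairs labelled CT, lower in 16 of 16 with 15 passing. Since 6 left CTC and 2 right CTT names lay at the ceiling, both sizes are lower bounds. With anti-CPD the medians were 0.87 for TC, higher in 16 of 16, and -0.70 for CT, lower in 13 of 16. The right CTT had 8114 with anti-CPD and the left CCT 5416.

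The pairs with the largest edge difference in each direction on each UV array, among pairs below the ceiling, are shown next. Their sequences are given as left and right partner in turn, and the source of the differences was not tested.
MITF_ebox_60_CTGC: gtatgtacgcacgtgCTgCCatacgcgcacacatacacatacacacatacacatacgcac
MITF_ebox_60_CGCT: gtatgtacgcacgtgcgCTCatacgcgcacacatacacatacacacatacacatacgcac
MITF_Ex_sebox_59_TCGT: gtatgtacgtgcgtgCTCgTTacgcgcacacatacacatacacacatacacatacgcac
MITF_Ex_sebox_59_TGTC: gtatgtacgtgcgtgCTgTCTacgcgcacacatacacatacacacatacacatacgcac
TBP_E59_CCAT: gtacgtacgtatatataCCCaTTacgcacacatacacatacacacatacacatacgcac
TBP_E59_TACC: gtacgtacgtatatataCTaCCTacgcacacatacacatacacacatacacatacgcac
p53_E_mut_60_CCAT: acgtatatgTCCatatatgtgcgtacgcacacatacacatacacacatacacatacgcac
p53_E_mut_60_TACC: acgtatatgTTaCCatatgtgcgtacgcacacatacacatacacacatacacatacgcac
MITF_ebox_60_CTGC had 5385 ± 769 on the 6-4PP UV array and MITF_ebox_60_CGCT 45078 ± 10185 (SD over 10 spots each), a log2 difference of -3.07 with an adjusted p of 2.72e-05 (exact permutation test). Both hold a CT, which is followed by G in the first and by C in the second. MITF_Ex_sebox_59_TCGT had 41034 and its partner TGTC 7394, a log2 difference of 2.47. Both non-UV values of each pair lay between 57 and 63 on the 6-4PP array.

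On the CPD UV array the extreme pairs were both labelled CC, and their TT came from the lone pyrimidine and the flank. TBP_E59_CCAT had 12726 ± 2896 and TBP_E59_TACC 3391 ± 1072 (SD over 10 spots each), a log2 difference of 1.91 with an adjusted p of 0.000281 (exact permutation test). In the first the lone T joins the following T of the backbone, and in the second it follows a C. p53_E_mut_60_CCAT had 2450.0 and p53_E_mut_60_TACC 7386, a log2 difference of -1.59, and here the T before the window pairs with the lone T of the right member. Without UV the 4 probes had CPD intensities of 57, 34, 32 and 34 in the order listed above.

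T and C at the lone pyrimidine had close medians where that base stays single, and unequal ones where a flank makes it part of a second dipyrimidine. In the purine-flanked libraries, where it stays single, T minus C was 0.08 with anti-CPD and -0.03 with anti-6-4PP, and 2 and 1 of 64 pairs passed, all with T higher. Over all 2688 pairs 42.1% passed with anti-CPD (41.9% with T higher) and 61.2% with anti-6-4PP (45.9% higher and 15.3% lower). With C after the window, the lone pyrimidine of a left member makes TC or CC. T was then above C in 56 of 56 pairs with anti-6-4PP, by a median of 0.82 with 54 passing, and in 53 of 56 with anti-CPD, by 0.59 with 18 passing. A left TC with a second TC had 33605 on the 6-4PP UV array, and with a CC in that place 14648. The left CT gave 18919 and 8362 in the same order. With pyrimidines on both sides the lone pyrimidine of a left member makes TT or CT, and T was above C in 32 of 32 pairs with anti-CPD, by a median of 0.99 with 29 passing. Over all left pairs 50.1% passed with anti-CPD and 72.1% with anti-6-4PP.

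At the right edge, with a pyrimidine before the window and a purine after it, the lone base is the second base of the extra step. There the medians had opposite signs with the 2 antibodies, a difference that was not tested. T was above C in 40 of 48 pairs with anti-CPD (median 0.38, 13 passed) and below C in 46 of 48 pairs with anti-6-4PP (median -0.34, 28 passed). Over all right pairs 34.2% passed with anti-CPD and 50.4% with anti-6-4PP. A right CC accompanied by TT had 6882 on the CPD UV array and accompanied by CC 1722. On the 6-4PP UV array the same 2 kinds had 10085 and 10196. The TT kind occurs only in the p53_E libraries and the CC kind only in those with C before the window, so the step and the backbone cannot be told apart. A right TC accompanied by CC had 23556 with anti-6-4PP and accompanied by CT 17096, so that the weaker value went with the added CT step.

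With anti-6-4PP nearly all members were brighter than a form with no dipyrimidine left, where such a form existed. Each member was paired with the ending in which the outer base of the dipyrimidine is replaced by a purine that keeps the alternation. The broken probe has no dipyrimidine left for right members with C after the window. The same holds for left members with a pyrimidine before the window and a purine after it. For those right members the intact probe was above the broken one with anti-6-4PP in 112 of 112 pairs, all passing, with a median log2 difference of 1.95 (medians 19839.8 for intact and 4909 for broken). For those left members it was higher in 94 of 96 pairs, with 86 passing and a median of 1.46 (medians 13914 and 4813). The same replacement was made in all endings, also where it breaks no dipyrimidine. Over all 5376 such pairs 76.6% passed, 40.5% with the first probe higher, and 73.5% of the left and 79.7% of the right pairs passed. Among the right types CT, the run CTC, had the highest median difference, 3.04 over 28 pairs, and for example MITF_ebox_60_CACT had 47995 and its broken form CACA 4065.

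With anti-CPD the values varied with the type. For the same right members TT was above its broken form in 28 of 28 pairs (median 1.21, 24 passed), CT in 26 of 28 (0.96, 11 passed), TC in 16 of 28 (0.20, 2 passed higher and 1 lower) and CC in 14 of 28, where 0 passed. For the left members TT was higher in 24 of 24 pairs (1.68, all passed) and TC in 24 of 24 (1.17, 16 passed), while CT had a median of 0.14 and CC of 0.01. Over all pairs with this replacement, also those where it breaks no dipyrimidine, 21.7% passed with anti-CPD, 13.4% with the first probe higher. Of the left pairs 18% passed and of the right pairs 25.4%. The right CCC was thus not told apart from its dipyrimidine-free form by anti-CPD at this spread, while anti-6-4PP bound it above that form in 28 of 28 pairs, by a median of 1.41. In the purine-flanked libraries breaking the listed dipyrimidine creates one on the opposite strand, and the median difference there was 0.10 with anti-CPD and 0.08 with anti-6-4PP.

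The window with its flanks could be compared in both orientations, with its dipyrimidines on the listed strand or as their complement. In 9 libraries the flanks read the same on both strands, so the 6 bases made of the window and its flanks could be matched as exact reverse complements, a subset chosen after the data had been seen. The rest of each probe kept its orientation. With C after the window (5 libraries) the listed orientation was brighter with anti-6-4PP in 157 of 160 pairs, by a median log2 difference of 0.55, and 121 passed with listed higher and 0 with listed lower. Over all 1080 such pairs of any ending, the members among them, 59.7% passed in either direction. The other pairs were ordered by letter, so they give no share for the listed orientation. With a pyrimidine before the window (4 libraries) the median was 0.29, with 66 passing higher and 16 lower. That class was split: 61 of 64 pairs were higher in the TBP_E libraries (median 0.41), against 36 of 64 in the p53_E libraries (0.13), where p53_E_mut_60 had a median of -0.37 and p53_E60 of 0.22. One example is MITF_ebox_60_CACT at 47995 on the 6-4PP UV array, against 26025 for its reverse-complement ending AGTG.

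With anti-CPD the listed orientation was also brighter on balance, more so for TT than for CC pairs. The medians were 0.20 with C after the window and 0.30 with a pyrimidine before it. Of the TT pairs 38 of 40 were higher in the first group (median 0.67, 21 passed) and 32 of 32 in the second (0.65, 24 passed). For CC the medians were 0.07 and 0.14, and 1 and 2 pairs passed with listed higher. Over all 1080 pairs of any ending, the members among them, 22.6% passed with anti-CPD in either direction, 7.78% with the first ending higher. The other pairs were ordered by letter here too, so the 7.78% is no background share for the listed orientation.

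The brightest and dimmest members were as follows. On the CPD UV array the 3 brightest were TBP_E59_TTAT (16132 ± 4067), p53_E_mut_60_TATT (15321 ± 3338) and TBP_MUT_E59_TTAT (15278 ± 2947), each with 2 TT steps, and the 3 dimmest were TBP_E60_CGCC (914 ± 911), MITF_ebox_59_CCAC (1189 ± 1103) and TBP_59_TACC (1228 ± 695), each labelled CC (SD over 10 spots). The sequence of TBP_E60_CGCC was also printed as TBP_60_CCGC, which had 2194 on that array, the widest gap among the 48 repeated sequences, so its place as dimmest rests on 1 of 2 readings. On the 6-4PP UV array the 3 brightest below the ceiling were MITF_Ex_ebox_59_TTAT (63949), MITF_Ex_sebox_59_TTAT (60712) and TBP_E60_TCAC (57746). The 3 dimmest were MITF_ebox_59 with the endings CTGT (4149), CTAC (4251) and CTAT (4449), all isolated left CT after a G and all below the dipyrimidine-free median of 4832. All 12 members at the ceiling carry A as the purine of the ending, and 8 of them are left TC members.

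Across the 672 members, the log2 UV intensities of the 2 antibodies had a Pearson correlation of 0.54 and a Spearman correlation of 0.54, given as a description, since names share sequences, libraries and array surface. The 48 sequences printed under 2 names show how far such values differ for the same sequence. With UV their 2 medians differed on the log2 scale by a median of 0.25 for anti-CPD (highest 1.26) and of 0.096 for anti-6-4PP (highest 0.36). With anti-CPD and UV every sequence shared by TBP_60 and TBP_E60 was brighter as TBP_60, for example 2194 against 914. In each other library pair that shared sequences neither name was always the brighter.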

How the data were processed

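The authors deposited, per the file headers, a linear fluorescence intensity for each spot, an intensity without flagged spots, and a spatially adjusted intensity. The reference dye column held 1 distinct value, so intensities were not corrected for the amount of DNA. UV dose, scanner settings and double-stranding were not given in the sources used here. Unflagged intensity was used, as the median over the spots of a name, and a log2 difference is that of 2 such medians. Replicate spots share an array, so p-values measure only technical spread. The members and lists were chosen with earlier results of these data known. By rule, named probes are all type and edge groups, fixed endings in the first library of each flank class, the 3 brightest and dimmest members, and the largest pair in each direction per UV array; the 4 TC probes with changed neighbours, single examples of other pairs and the 2 CT pairs were named after their values were seen. Tests were exact two-sided permutation tests of mean log2 intensity between the replicate spots of 2 probes, with at least 3 spots each (smallest p 1.08e-05), adjusted by Benjamini-Hochberg over all pairs of one kind on one array. They were checked on simulated data. Alternatives tried were spatially adjusted intensity, means in place of medians, keeping flagged spots, leaving out ceiling values, other thresholds, probe length and the 6-4PP titles. Python 3.11.15, numpy 2.4.6 and pandas 2.3.3 were used.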

Additional observations from a re-analysis of the deposited data

Results flagged for a closer look

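Left CT against left CC went opposite ways with the antibodies: with UV the median log2 difference was 0.29 for anti-CPD and -0.46 for anti-6-4PP. T against C at the lone pyrimidine of right members did so too, with 0.17 for anti-CPD and -0.16 for anti-6-4PP. The difference between the antibodies was not tested, since each has 1 UV array.

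Spots that carry no library name also gave signal. With anti-CPD their median intensity was 40595.5 (UV) and 63 (non-UV), over 1716 spots each. With anti-6-4PP it was 65535 (UV, 1706 unflagged spots) and 44 (non-UV, 1678 unflagged spots), and 1307 of the UV spots lay at the ceiling. These spots enter no comparison.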

How the results depend on the processing

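No paired analysis was possible because each group is 1 array and the labels give no replicate numbers. Of 316 values under alternatives, 300 moved by less than the spread of replicate spots, or by less than 1.5 times for a count. That count includes values that could not move. With anti-CPD 0 member spots were flagged or at the ceiling, so the alternatives on flags and ceiling left the members' medians as they were. A median smaller than the spread of spots could also change sign and still be counted as unmoved. The spatially adjusted intensity raised the member pairs that passed with anti-CPD to 163 for left against right, 443 for type against CC, 118 for A against G, 130 for T against C, 365 for intact against broken and 373 for listed against opposite strand. The shares over all pairs moved too (54.9%, 88.9%, 59.3%, 67.1%, 45.8% and 53.3% in that order). With the 6-4PP arrays read by their titles, the UV minus non-UV difference reversed to -7.96 for left and -8.01 for right members. Without names at the ceiling the log2 median of left TC on the 6-4PP UV array was 14.70. At 1.5 times the dipyrimidine-free median 49 members passed on the CPD non-UV and 13 on the 6-4PP non-UV array. At 3 times 153 passed on the CPD UV, 309 on the 6-4PP UV and 0 on the CPD non-UV array. Among probes of 59 bases alone, right CT against CC was 0.84 and left listed against opposite strand 0.21 on the 6-4PP UV array. The number of arrays, and on the CPD UV array the spread of spots, limit the precision.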
